A study of Rattus norvegicus with 45 samples.

Results

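Fgf21 (probe set 170580_at) and Gdf15 (probe set 29455_at) encode 2 hormones that a stressed liver releases into the blood, and their mRNA was followed here in rat liver after an overdose of acetaminophen (APAP). They were taken by symbol from the deposited annotation sheet, both were found, and they are 2 of the 13877 genes on the array table. FGF21 is a fibroblast growth factor that lacks tight binding to the matrix, so it circulates, and it signals through FGF receptors only where the co-receptor beta-klotho (Klb) is present. In mice it is best known as a hormone that hepatocytes make during fasting under the nuclear receptor PPAR alpha, and it is also switched on by Atf4, the transcription factor of the integrated stress response. GDF15 is a distant member of the TGF-beta superfamily that acts on the hindbrain receptor GFRAL and its partner RET to reduce food intake, and damaged cells of many tissues make it under Atf4, CHOP (Ddit3) and p53.

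The livers came from 45 male Sprague-Dawley rats, 5 weeks old and fasted for 16 h, with 5 animals in each of 9 groups. In 4 groups the rats had received 1000 mg/kg APAP by oral gavage and were killed at 3, 6, 9 or 24 h, in 4 groups they had received only the vehicle (1% hydroxyethylcellulose by the same route) and were killed at the same times, and a baseline group was killed untreated at 0 h. The baseline animals were therefore also fasted, and food was returned after dosing, so time after dosing runs together with refeeding in both the APAP and the vehicle arm. One array was run per animal, and values are log2 expression values after RMA, which gives the probe intensities of every array the same distribution. Arrays of a group correlated at 0.983 to 0.996 across genes, the mean of 10 hepatocyte markers lay between 13.57 and 13.98 in all 45 livers, and 5 arrays per group set how precise each value can be. In such bulk tissue, fewer cells of a type and less RNA per cell cannot be told apart.

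The promoters are shown because the 2 genes moved together and because Atf4 acts on DNA through a short composite site. These are the 250 bases before each start site in the RefSeq annotation of build GRCr8, on the strand of the gene, with every match to a searched motif in capitals. Fgf21 has 1 annotated start on chromosome 1 (chr1:105221377-105221626, minus strand), and Gdf15 has 2 on chromosome 16 (chr16:18838186-18838435 and chr16:18839015-18839264, plus strand).
Fgf21: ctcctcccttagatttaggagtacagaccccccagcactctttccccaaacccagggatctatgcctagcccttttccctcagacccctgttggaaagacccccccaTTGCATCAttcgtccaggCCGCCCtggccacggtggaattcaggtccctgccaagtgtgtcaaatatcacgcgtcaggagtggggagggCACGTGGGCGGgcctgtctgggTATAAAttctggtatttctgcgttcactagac
Gdf15, first start: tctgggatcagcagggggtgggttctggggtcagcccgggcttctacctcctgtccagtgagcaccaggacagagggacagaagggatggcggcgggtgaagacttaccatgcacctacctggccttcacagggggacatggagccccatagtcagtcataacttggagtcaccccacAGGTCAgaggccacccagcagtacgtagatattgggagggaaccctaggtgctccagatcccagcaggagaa
Gdf15, second start: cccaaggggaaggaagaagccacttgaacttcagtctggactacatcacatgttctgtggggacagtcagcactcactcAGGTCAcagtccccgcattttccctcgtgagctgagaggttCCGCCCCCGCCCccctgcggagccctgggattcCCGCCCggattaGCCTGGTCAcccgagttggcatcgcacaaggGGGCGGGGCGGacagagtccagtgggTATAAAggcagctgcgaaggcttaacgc

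Each of 7 motifs was searched on both strands. The composite site of C/EBP and ATF factors (TGATGNAA) was found once, in the Fgf21 window, on the opposite strand at positions -143 to -136 from the start, and 3.4% of 33469 rat promoter windows of this length hold it. Fgf21 also held an E-box (CACGTG, in 5.6% of windows) at -54 to -49, which shares its last base with 1 of 2 GC boxes (GGGCGG, in 30.5% of windows), and a TATA box (TATAAA, in 12.9% of windows) at -32 to -27. The second Gdf15 start held a TATA box at -28 to -23, 5 GC boxes of which 2 share a base, an antioxidant element (TGACNNNGC, in 10.1% of windows) at -85 to -77 on the opposite strand, and a nuclear receptor half-site (AGGTCA, in 14.1% of windows) at -171 to -166. The first Gdf15 start held only a half-site, at -72 to -67. The AP-1 element (TGANTCA, in 6.3% of windows) matched none of the 3 windows. A match describes letters, not a bound factor, and these arrays do not tell which Gdf15 start was used.

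Fgf21 was higher in every APAP animal at 3 and 6 h than in any vehicle or baseline animal. At 3 h the APAP animals had 11.46, 12.75, 12.92, 12.60 and 12.52, against 8.34, 8.84, 7.77, 9.07 and 8.49 in vehicle animals. At 6 h the APAP animals had 11.59, 11.58, 12.60, 11.19 and 11.95, against 8.27, 7.77, 8.01, 8.14 and 8.44 in vehicle animals. The groups did not overlap at either time, and the distance between the lowest APAP and the highest vehicle animal was larger than the range within either group. How many of all genes separated in this way was not counted.

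By 9 h the APAP animals had split, and the vehicle group held 1 high animal. Fgf21 stood at 11.97, 9.92, 9.86, 12.15 and 12.05 in APAP animals, against 7.45, 10.35, 8.5, 7.85 and 8.26 in vehicle animals. The groups overlapped: 3 of 5 APAP animals lay above all vehicle animals, and replicates 2 and 3 lay below vehicle replicate 2, whose 10.35 was the highest of the 25 vehicle and baseline values. At 24 h Fgf21 was 8.70, 7.32, 9.39, 7.91 and 7.95 in APAP animals and 9.61, 7.42, 9.17, 9.15 and 7.80 in vehicle animals, and no APAP animal exceeded the vehicle range. Baseline animals had 8.45, 8.57, 9.51, 7.94 and 9.09, a range of 2.97-fold without any dose.

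Gdf15 varied little among animals that had not received APAP. Baseline animals had 4.67, 4.84, 4.68, 4.57 and 4.70, and over the 25 vehicle and baseline livers Gdf15 lay between 4.50 and 5.24, a 1.67-fold range, at percentiles 5.0 to 14.2 of the genes of its array. The range of Fgf21 in the same livers was 7.63-fold. The table used here carries no detection call, so whether these low Gdf15 values lie above the background of the array was not tested.

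With APAP, Gdf15 was above this range in all animals at 3, 6 and 9 h. At 3 h it was 7.35, 9.88, 9.69, 9.68 and 9.10 in APAP animals, against 4.50, 4.93, 4.70, 4.54 and 4.56 in vehicle animals. At 6 h it was 6.68, 5.57, 7.56, 8.36 and 7.73 in APAP animals, against 4.79, 4.70, 4.53, 4.65 and 4.87 in vehicle animals. At 9 h it was 7.61, 7.47, 5.49, 7.70 and 7.42 in APAP animals, against 4.82, 5.24, 4.86, 4.72 and 4.80 in vehicle animals. The groups did not overlap at these 3 times, although APAP replicate 2 at 6 h and replicate 3 at 9 h lay closest to the vehicle values. Over all genes, such separation was not counted. At 24 h APAP animals had 4.98, 4.77, 5.49, 4.78 and 4.77, against 4.77, 4.59, 4.99, 4.83 and 4.76 in vehicle animals, and only APAP replicate 3 lay above the vehicle range.

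**Figure D1:**
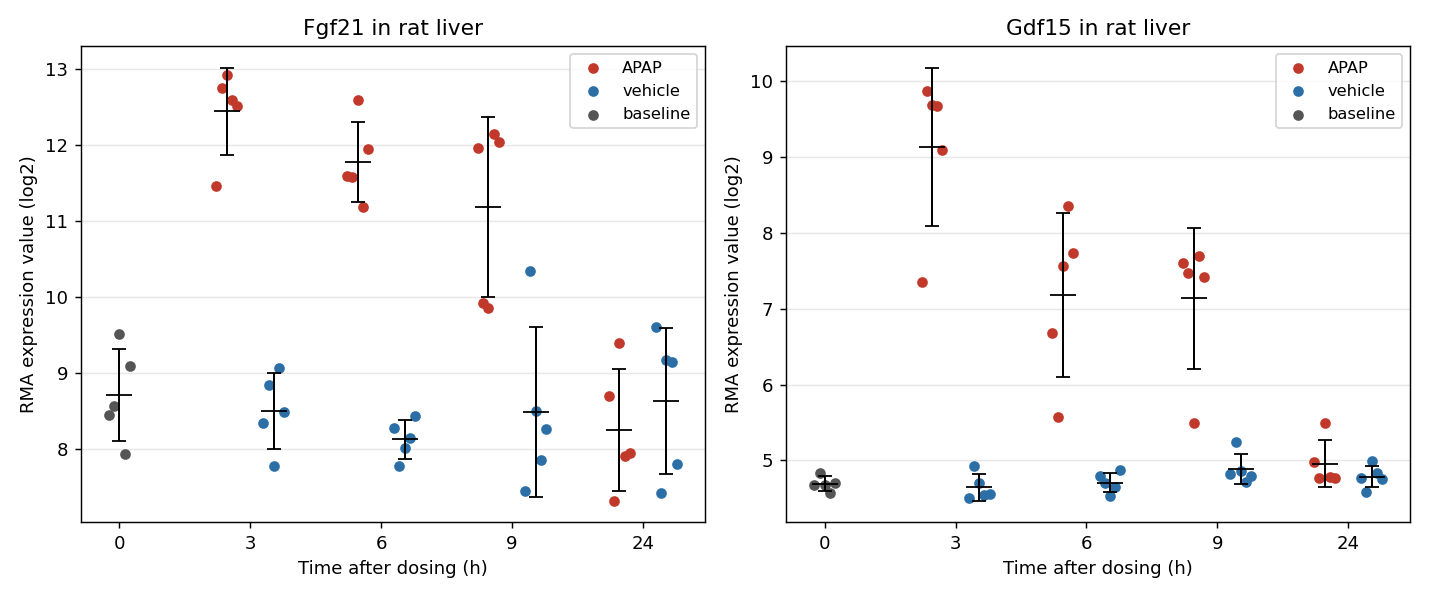
RMA expression values (log2) of Fgf21 (left) and Gdf15 (right) by time after dosing (h), 1 point per animal, with the mean and SD of each group of 5 in black and APAP left of vehicle at each time. Fgf21 in APAP animals at 3 h sits between 11.46 and 12.92 above vehicle values of 7.77 to 9.07, and Gdf15 between 7.35 and 9.88 above 4.50 to 4.93, while at 24 h the points of both arms overlap for both genes.

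The order of the group means was the same at the top for both genes. Fgf21 averaged 12.45 ± 0.57, 11.78 ± 0.53 and 11.19 ± 1.19 (SD, n = 5) in APAP animals at 3, 6 and 9 h, and then came baseline (8.71 ± 0.61), vehicle at 24, 3 and 9 h (8.63 ± 0.96, 8.5 ± 0.50 and 8.48 ± 1.12), APAP at 24 h (8.25 ± 0.80) and vehicle at 6 h (8.13 ± 0.25). Every pair of neighbors in this order overlapped, except that all APAP animals at 9 h lay above all baseline animals. Gdf15 averaged 9.14 ± 1.04, 7.18 ± 1.08 and 7.14 ± 0.93 in APAP animals at 3, 6 and 9 h, then 4.96 ± 0.31 in APAP animals at 24 h, and 4.65 to 4.89 in the vehicle and baseline groups. All neighbors in the order of Gdf15 overlapped. The SD of Gdf15 was 0.93 to 1.08 in APAP animals at 3 to 9 h and 0.13 to 0.20 in vehicle animals of those times, a difference in spread that was not tested.

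Both genes were called higher with APAP at 3, 6 and 9 h, with a call set at a limma adjusted p under 0.05 over all genes and a change of at least 1.5-fold. At 3 h, when 3.34% of all genes were called higher and 2.98% lower, Fgf21 was 15.4-fold higher in APAP than in vehicle animals (log2 difference 3.95 ± 0.28, SE, n = 5 per group, limma adjusted p = 1.61e-06) and Gdf15 was 22.5-fold higher (4.49 ± 0.39, limma adjusted p = 6.65e-06). At 6 h, with 7.06% of genes called higher and 7.04% lower, the differences were 3.66 ± 0.22 for Fgf21 (12.6-fold, limma adjusted p = 9.41e-08) and 2.47 ± 0.40 for Gdf15 (5.54-fold, limma adjusted p = 0.00026). At 9 h, with 8.65% called higher and 8.47% lower, they were 2.71 ± 0.61 for Fgf21 (6.54-fold, limma adjusted p = 0.00284) and 2.25 ± 0.35 for Gdf15 (4.76-fold, limma adjusted p = 0.00023). Leaving out vehicle replicate 2 at 9 h, the high animal, gave 3.18 for Fgf21.

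At 24 h, when 1.56% of genes were called higher and 1.84% lower, neither gene passed. The difference was -0.38 ± 0.46 for Fgf21 (95% interval -1.38 to 0.63, limma adjusted p = 0.731) and 0.17 ± 0.14 for Gdf15 (95% interval -0.13 to 0.46, limma adjusted p = 0.54). The scale matters at this time. RMA sets the probe intensities of all arrays to 1 distribution. As an alternative, each array was centered on the mean of its ribosomal protein genes, of which only 6 were matched by symbol. The median of all genes was then -0.545 at 24 h, with Fgf21 at -0.93 (limma adjusted p = 0.0477, called lower) and Gdf15 at -0.39 (limma adjusted p = 0.00693, under 1.5-fold). That scale called 36.8% of all genes lower and 0.288% higher at 24 h. Under RMA the interval of Fgf21 still admits a fall or a rise of more than the 1.5-fold threshold, and that of Gdf15 does not reach it. Because the vehicle values of Gdf15 lie so low, its size depends on how the floor is treated: with values under the 25th percentile of each array set to that percentile, its difference was 3.17, 1.29 and 1.25 at 3, 6 and 9 h, still called each time.

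**Figure D2:**
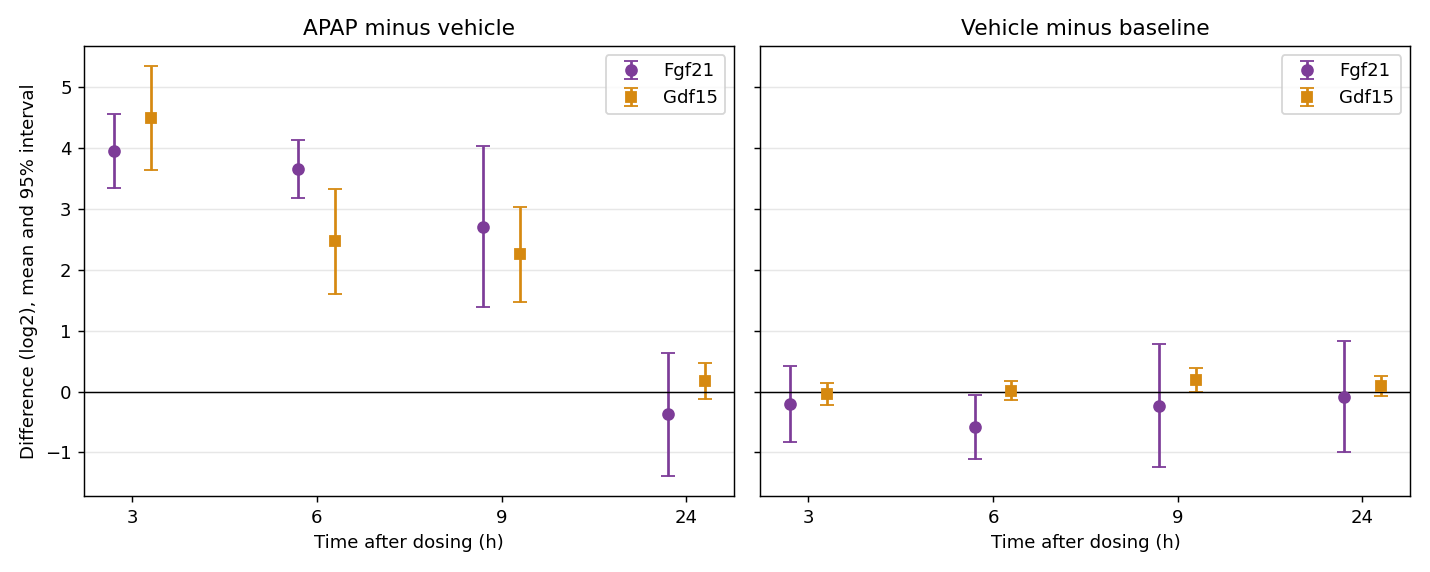
Log2 difference with its 95% interval for APAP minus vehicle (left) and vehicle minus baseline (right) at each time (h), with Fgf21 as circles and Gdf15 as squares. The APAP differences stand between 2.25 and 4.49 at 3 to 9 h and near 0 at 24 h, and all 8 vehicle differences lie between -0.59 and 0.20.

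The APAP effect on Gdf15 was largest at 3 h and already smaller at 6 h. The effect at 6 h less that at 3 h was called for Gdf15 (interaction -2.02 ± 0.61, limma adjusted p = 0.022, with 6.90% of genes called). For Fgf21 it was -0.29 ± 0.39 and was not called (limma adjusted p = 0.696). Neither effect passed between 9 and 6 h, at -0.95 ± 0.70 for Fgf21 (limma adjusted p = 0.486) and -0.22 ± 0.58 for Gdf15 (limma adjusted p = 0.893), with 3.13% of genes called. Between 9 and 24 h both effects were lost. The effect at 24 h less that at 9 h was -3.08 ± 0.83 for Fgf21 (limma adjusted p = 0.00626) and -2.08 ± 0.41 for Gdf15 (limma adjusted p = 0.000451), with 16.4% of genes called.

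Steps within the APAP arm use the same APAP arrays as the interactions above and are not separate evidence. Between 6 and 3 h Gdf15 changed by -1.96 ± 0.55 (limma adjusted p = 0.0283, 3.66% of genes called), a call that ended when replicate 1 or 2 of the 6 h group, or replicate 2, 3, 4 or 5 of the 3 h group, was left out (limma adjusted p = 0.0536 to 0.0694). Fgf21 changed by -0.67 ± 0.29 (limma adjusted p = 0.142) over the same step, and it was called without replicate 3 at 6 h (-0.87, limma adjusted p = 0.0382) or replicate 1 at 3 h (-0.91, limma adjusted p = 0.0207). Neither gene passed between 9 and 6 h (1.84% of genes called). Both were lower at 24 than at 9 h, Fgf21 at -2.94 ± 0.53 (7.65-fold lower, limma adjusted p = 0.000824) and Gdf15 at -2.18 ± 0.37 (4.54-fold lower, limma adjusted p = 0.000466), at 16.5% of genes called.

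Whether the 2 genes changed unequally was also asked within each animal, from Fgf21 minus Gdf15 in log2 units. APAP less vehicle, this was -0.54, 1.19, 0.46 and -0.54 at 3, 6, 9 and 24 h. None passed an exact two-sided permutation test (p = 0.143, 0.0556, 0.421 and 0.254, and 0.222 to 0.421 after Benjamini-Hochberg adjustment over the 4 times). The smallest p that 5 against 5 animals allow is 0.00794. With APAP replicate 4 at 6 h left out the 6 h value was 1.63 and its adjusted p was 0.0317 by the exact test. With the floor at the 25th percentile the 3 h value turned to 0.77 (exact adjusted p = 0.0635) and the 6 h value was 2.37 (exact adjusted p = 0.0317).

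After food was returned no change in either gene was called. Fgf21 in vehicle animals differed from baseline by -0.21 ± 0.29, -0.59 ± 0.24, -0.23 ± 0.46 and -0.08 ± 0.42 at 3, 6, 9 and 24 h, with limma adjusted p of 0.7, 0.101, 0.78 and 0.925. The corresponding differences of Gdf15 were -0.05 ± 0.08, 0.02 ± 0.07, 0.20 ± 0.09 and 0.10 ± 0.08, with limma adjusted p of 0.783, 0.914, 0.137 and 0.424. Among all genes 3.55%, 5.02%, 6.40% and 6.55% were called at these times. Fgf21 at 6 h was the nearest to a call, and it passed when baseline replicate 4, the lowest baseline animal, was left out (-0.78, limma adjusted p = 0.0157) and with ribosomal protein genes as the reference (-0.82, limma adjusted p = 0.00779), a scale that called 5.84% of all genes lower and 1.25% higher there. Between neighboring times of the vehicle arm neither gene was called, in comparisons that called 1.24%, 0.396% and 1.53% of genes.

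Genes that PPAR alpha drives in the fasted liver, to which Fgf21 belongs in mice, did change in the same vehicle animals. Of 16 measured genes, 4, 9, 10 and 11 were called lower in vehicle than in baseline animals at 3, 6, 9 and 24 h, and 0 higher. Over all genes 3.55%, 5.02%, 6.40% and 6.55% were called at these times, both directions together. Cpt1a, which lets fatty acids into mitochondria, fell at all 4 times (-1.28 ± 0.14, -3.20 ± 0.21, -4.31 ± 0.19 and -2.87 ± 0.13), and Pdk4, which spares glucose, fell already at 3 h (-1.55 ± 0.17). Ppara itself fell at all 4 times, with -1.16 ± 0.10 at 3 h and -0.61 ± 0.12 at 24 h. Igfbp1, whose protein carries IGF in blood and which insulin represses, fell most at 3 h (-5.06 ± 0.35).

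Measured against the fasted baseline instead of vehicle, the APAP animals gave the following values for the 2 hormones. Fgf21 was higher by 3.74 ± 0.31, 3.07 ± 0.29 and 2.48 ± 0.49 at 3, 6 and 9 h, and Gdf15 by 4.45 ± 0.39, 2.49 ± 0.40 and 2.45 ± 0.35, all called (limma adjusted p at most 0.00137), where 3.83%, 10.7% and 15.0% of genes were called. At 24 h Fgf21 was at -0.46 ± 0.37 (limma adjusted p = 0.421) and Gdf15 at 0.26 ± 0.13 (limma adjusted p = 0.156), with 8.43% of genes called, and with ribosomal protein genes as the reference Fgf21 was called lower (-1.11, limma adjusted p = 0.00519) and Gdf15 turned to -0.39, where 66.0% of all genes were called lower and 0.958% higher. These comparisons use the same APAP arrays as those with vehicle and are not separate evidence.

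Animals of a group that were high in one hormone tended to be high in the other. The deviations of Fgf21 and Gdf15 from their group means correlated in the 20 APAP animals (Pearson r = 0.538, permutation p = 0.012, and Spearman rho = 0.549, permutation p = 0.00804, with animals shuffled within groups), where leaving out the 2 animals farthest from the median of Fgf21 gave r = 0.524 (permutation p = 0.0369). In the 25 vehicle and baseline animals r was 0.6 (permutation p = 0.0108) and rho 0.529 (permutation p = 0.0119), but without vehicle replicate 2 at 9 h and vehicle replicate 2 at 24 h r was 0.352 (permutation p = 0.16), so there the relation rests on those animals. In both checks the group means still included the left-out animals, so their values still entered the deviations of the others. Adjusted over the 2 sets of animals the permutation p values were 0.012 for r and 0.0119 for rho in each. All the animals of a group share a time and a handling day is not given, so a shared batch was not tested.

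**Figure D3:**
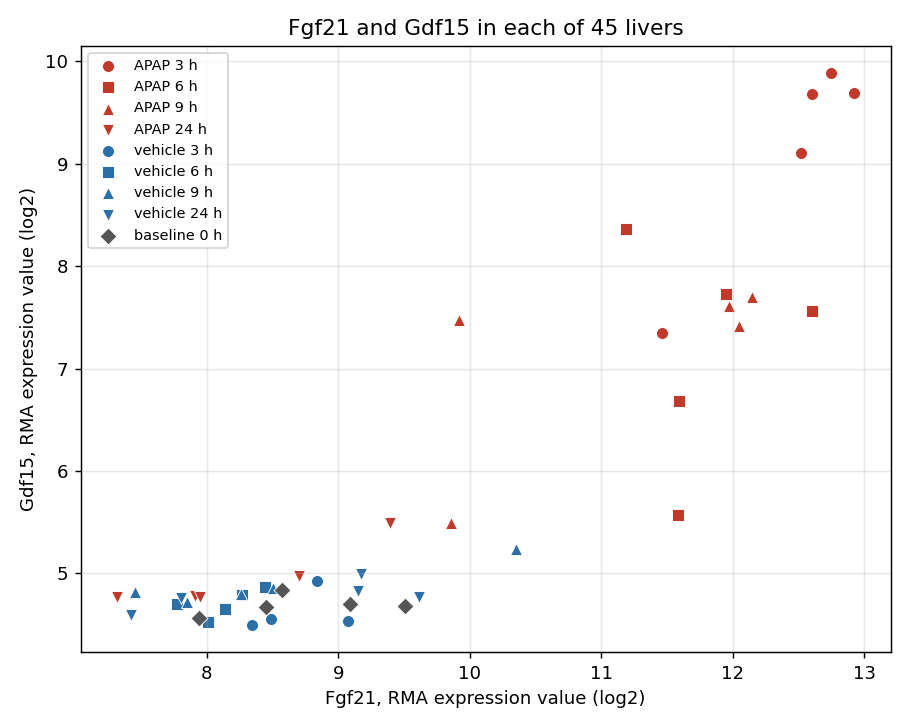
Gdf15 against Fgf21 (RMA expression values, log2) in each of 45 livers, with color for the arm and marker shape for the time. APAP animals at 3, 6 and 9 h reach Fgf21 of 9.86 to 12.92 and Gdf15 of 5.49 to 9.88, and vehicle replicate 2 at 9 h (10.35 and 5.24) stands right of the other vehicle animals.

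Several animals that stood apart in the hormones also stood apart in some stress genes, though not in all. Vehicle replicate 2 at 9 h was also the highest of its group in Trib3, a pseudokinase induced by Atf4 and CHOP (9.48, others 6.76 to 8.44), in Chac1, which degrades glutathione (9.47, others 7.84 to 8.24), and in Atf3 (6.13, others 4.89 to 5.24). Its mean over 14 integrated stress response genes was 9.15, against 8.63 to 8.89 in the other 4. APAP replicate 3 at 24 h, highest of its group in both hormones, had Trib3 at 10.47 (others 7.20 to 8.90) and a list mean of 9.23 (others 8.57 to 8.87), but not the highest Ddit3 (7.93, others 7.19 to 8.37) or Jun (6.83, others 6.44 to 7.20). APAP replicates 2 and 3 at 9 h were both low in Fgf21, but only replicate 3 was low in Gdf15 (5.49, against 7.47 in replicate 2). They had Chac1 at 9.76 and 9.89 (others 11.60 to 11.76), Jun at 9.85 and 10.16 (others 11.87 to 12.07) and Ddit3 at no more than 11.05 (others 12.11 to 12.26), while Trib3 was 9.94 in replicate 3 and, in replicate 2, at 10.67 lay within the others (10.60 to 11.22). APAP replicate 1 at 3 h, lowest of its group in both, had Chac1 at 10.90 (others 12.75 to 13.68) and Ddit3 at 10.04 (others 10.97 to 12.11), while its Trib3 of 11.06 lay within the others (10.71 to 11.20). These animals also had the arrays least like their groups over all genes. By mean correlation with the other arrays of its group, vehicle replicate 2 at 9 h had 0.9927 (others 0.9934 to 0.9945). APAP replicate 3 at 24 h had 0.9865 (others 0.9906 to 0.9924), and APAP replicate 1 at 3 h 0.9919 (others 0.993 to 0.9942). APAP replicates 2 and 3 at 9 h had 0.9901 and 0.99 (others 0.9906 to 0.9916). What these animals share beyond the values, and why their arrays differ, was not tested.

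The genes with the most similar pattern over the 45 arrays depended on the measure of likeness. By Pearson r they were Chac1 (0.952), Jun (0.943), Btg2 (0.921), Atf3 (0.917) and Hnrnpa1 (0.912) for Fgf21, and Chac1 (0.957), Jun (0.936), Junb (0.933), Nfkbiz (0.933) and Gadd45b (0.931) for Gdf15. Fgf21 and Gdf15 correlated with each other at 0.898, which made Gdf15 the 19th closest gene to Fgf21 and Fgf21 the 14th closest to Gdf15. These are descriptions over arrays that share the same 9 groups, so any gene with a large early APAP response scores high. By Spearman rho the closest genes were Tp53rk (0.858), Prkrip1 (0.85), Rnf19b (0.845), Stk17b (0.826) and Osgin1 (0.823) for Fgf21, sharing 0 of 5 with the Pearson ranking, and Chac1 (0.866), Atf4 (0.848), Wnk1 (0.837), Slc7a1 (0.835) and Haus8 (0.831) for Gdf15, sharing Chac1. Chac1 lay at 10.90 to 13.68 in APAP animals at 3 h, against 7.55 to 7.88 in vehicle animals.

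Several regulators of the integrated stress response were called higher at the same times as the hormones. Of 14 measured genes of this list, 7, 6, 7 and 0 were called higher with APAP at 3, 6, 9 and 24 h and 0 lower. Over all genes 3.34%, 7.06%, 8.65% and 1.56% were called higher and 2.98%, 7.04%, 8.47% and 1.84% lower at these times, which are the shares to hold beside each list of APAP against vehicle. The list had medians of 0.49, 0.41, 0.54 and 0.01 beside -0.02, -0.04, -0.03 and 0.01 over all genes. Atf4 rose by 1.25 ± 0.10, 1.21 ± 0.10 and 0.83 ± 0.14 at 3, 6 and 9 h, and Ddit3 (CHOP), its partner in stressed cells, rose by 3.55 ± 0.37, 3.76 ± 0.13 and 3.65 ± 0.24. Atf3, a repressor and activator of early stress genes, rose by 6.62 ± 0.35, 6.78 ± 0.16 and 6.27 ± 0.21. Trib3 rose by 3.85 ± 0.17, 5.54 ± 0.12 and 2.66 ± 0.43, and Ppp1r15a, which restores translation by dephosphorylating eIF2 alpha, by 3.23 ± 0.24, 4.14 ± 0.10 and 4.36 ± 0.25. None of these 5 was called at 24 h. With ribosomal protein genes as the reference, 5 of the 14 were called lower at 24 h, beside the 36.8% of all genes.

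The regulators followed several time courses, and none was tested against that of Gdf15. At 6 h Ddit3 averaged 11.97 in APAP animals against 8.21 in vehicle animals, and at 9 h 11.71 against 8.05. The APAP differences of Trib3 (2.66) and Atf4 (0.83) at 9 h were smaller than those at 6 h (5.54 and 1.21), and vehicle means were higher at 9 h. Atf4 averaged 12.35 at 6 h and 12.25 at 9 h in APAP animals, and 11.14 and 11.42 in vehicle animals. Trib3 averaged 12.13 and 10.65 in APAP animals at these times, and 6.59 and 7.98 in vehicle animals. Gdf15 averaged 9.14, 7.18 and 7.14 in APAP animals at 3, 6 and 9 h. Atf4 also rose in vehicle animals relative to baseline at 6, 9 and 24 h (0.59 ± 0.08, 0.87 ± 0.10 and 0.63 ± 0.13), times at which neither hormone was called. Ddit3 rose in vehicle animals at 6 h (0.72 ± 0.10).

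Other transcription factors reported to act on Fgf21 or Gdf15 went both ways. Of 17 measured, 2, 3, 2 and 0 were called higher and 1, 2, 4 and 1 lower at 3, 6, 9 and 24 h, beside 1.56% to 8.65% of all genes higher and 1.84% to 8.47% lower. With ribosomal protein genes as the reference, 14 of the 17 were called lower at 24 h, beside 36.8% of all genes. Ppara was higher in APAP than in vehicle animals at 3 h (0.93 ± 0.10), not called at 6 h (-0.27 ± 0.21), lower at 9 h (-0.73 ± 0.12) and not called at 24 h (-0.04 ± 0.13). Mlxipl (ChREBP), the carbohydrate sensor that turns on Fgf21 after sugar in mice, fell at 6 h (-0.95 ± 0.09) and 9 h (-1.79 ± 0.11), and the bile acid receptor gene Nr1h4 fell at 9 h (-1.66 ± 0.10). The retinoid receptor gene Rarb fell at 6, 9 and 24 h (-1.13 ± 0.14, -1.67 ± 0.14 and -0.74 ± 0.10). Rora, a clock-linked nuclear receptor, rose at 6 h (1.38 ± 0.14).

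**Figure D4:**
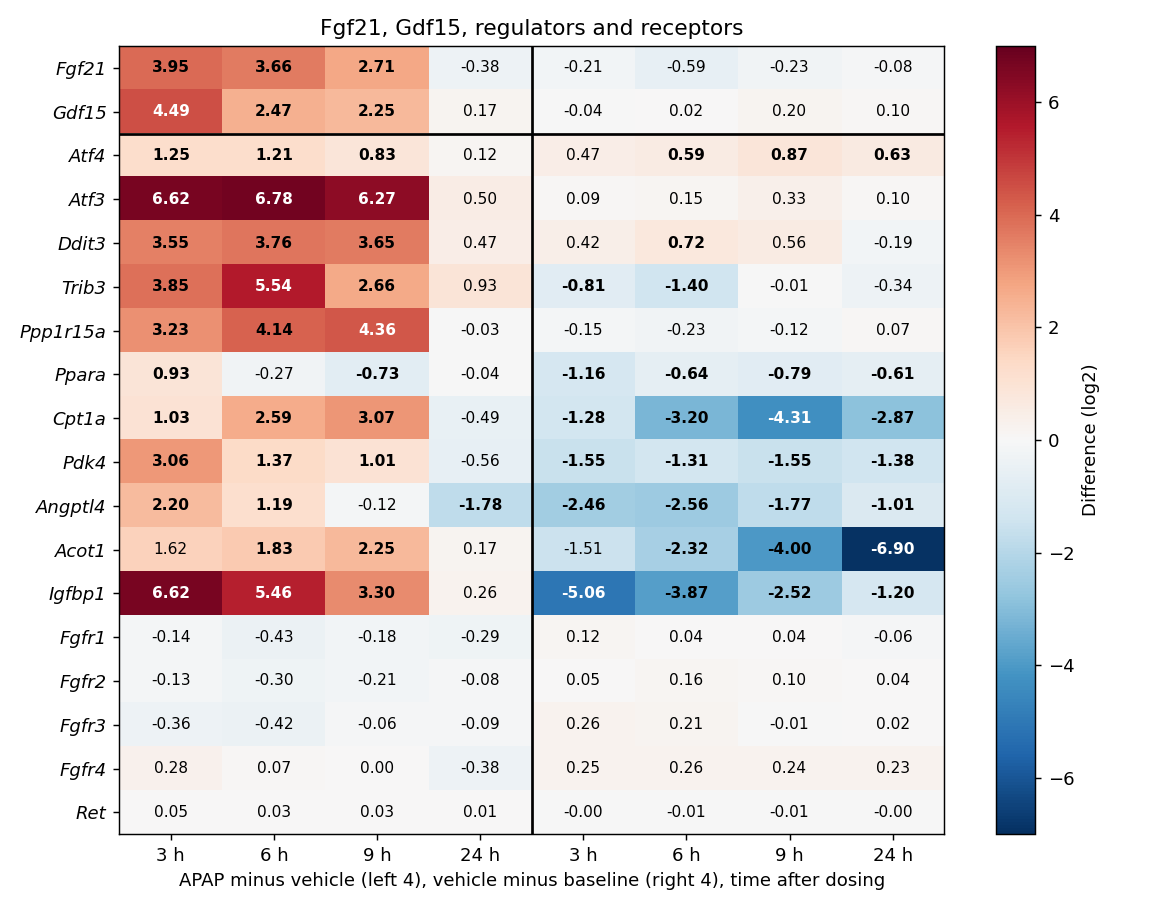
Log2 differences of Fgf21, Gdf15 and named regulators, fasting genes and receptors, for APAP minus vehicle (left 4 columns) and vehicle minus baseline (right 4 columns) by time, with called values in bold. The hormones and the stress regulators from Atf4 to Ppp1r15a are called higher with APAP at 3, 6 and 9 h, the fasting genes and Igfbp1 are mostly called lower in vehicle animals, and no receptor is called in any column.

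The measured receptors of the 2 hormones were not called under RMA, in lists too short to read against the 1.56% to 8.65% of all genes called in 1 direction. Of 8 measured FGF receptor and adaptor genes 0 were called in either direction at any time under RMA, and Klb was not analysed here. With ribosomal protein genes as the reference, 6 of the 8 were called lower at 24 h, beside 36.8% of all genes. Fgfr4, the main FGF receptor of hepatocytes, differed by 0.28 ± 0.05 at 3 h (limma adjusted p = 0.00211) and by -0.38 ± 0.07 at 24 h (limma adjusted p = 0.00435), both under 1.5-fold. Fgfr1 differed by -0.43 ± 0.11 at 6 h (limma adjusted p = 0.0057), Fgfr3 by -0.42 ± 0.07 (limma adjusted p = 0.000201) and Fgfr2 by -0.30 ± 0.06 (limma adjusted p = 0.00159) at the same time. Ret, the signaling partner of the GDF15 receptor, lay between 4.6 and 4.82 in all 45 livers, and its receptor gene Gfral was not analysed here. Mmp14, a protease that sheds that receptor in mice, differed by -0.55 ± 0.13 at 3 h (limma adjusted p = 0.00712) and was not called, while it fell in vehicle animals against baseline at 9 h (-0.70 ± 0.11) and 24 h (-1.18 ± 0.11).

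The shares of other ligands of the 2 families that were called lay near those over all genes (1.56% to 8.65% higher, 1.84% to 8.47% lower). Of 21 other FGF genes 0 were called higher at any of the 4 times, and Fgf1 and Fgf3 were called lower at 9 h (-0.61 ± 0.07 and -0.62 ± 0.08). Of 22 other TGF-beta superfamily ligand genes 1 was called higher, Inhbb at 9 h (0.83 ± 0.19). Inhba, which encodes the beta A subunit of activin, fell at 3, 6, 9 and 24 h (-1.54 ± 0.15, -1.67 ± 0.13, -1.72 ± 0.12 and -1.11 ± 0.15), and Inhbc, a liver activin subunit, fell at 6 h (-0.63 ± 0.14) and 9 h (-0.88 ± 0.17). Bmp1, a protease despite its name, was the other gene of this list to fall at 6 h (-0.63 ± 0.07). With ribosomal protein genes as the reference, 9 of the 21 FGF and 13 of the 22 TGF-beta superfamily genes were called lower at 24 h. That scale called 36.8% of all genes lower at this time. Among 6 proteases that cut GDF15 precursors or inactivate FGF21, Furin fell at 6 h (-0.84 ± 0.08) and Pcsk6 rose at 9 h (0.98 ± 0.09).

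Of 12 measured genes that FGF receptors induce through MAP kinase, 2, 3, 5 and 0 were called higher and 1, 2, 0 and 2 lower at 3, 6, 9 and 24 h, beside 1.56% to 8.65% of all genes higher and 1.84% to 8.47% lower. With ribosomal protein genes as the reference, 8 were called lower at 24 h, beside 36.8% of all genes. Dusp5, a phosphatase of ERK, rose by 1.44 ± 0.39, 4.10 ± 0.22 and 4.76 ± 0.11 at 3, 6 and 9 h, and Ier3 by 1.87 ± 0.12, 1.49 ± 0.18 and 2.02 ± 0.09. Dusp6, a phosphatase of ERK that FGF signaling is best known to induce, fell at 3, 6 and 24 h (-2.02 ± 0.20, -1.56 ± 0.35 and -0.95 ± 0.28).

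Some fasting genes were called higher in APAP than in vehicle animals at 3 to 9 h. Of 16 measured, 5, 6 and 6 were called higher and 0 lower at 3, 6 and 9 h, when 3.34%, 7.06% and 8.65% of all genes were called higher. At 24 h 0 were called higher and 4 lower, when 1.84% of all genes were called lower. With ribosomal protein genes as the reference, 11 were called lower at 24 h, beside 36.8% of all genes. Pdk4 rose by 3.06 ± 0.35, 1.37 ± 0.34 and 1.01 ± 0.32, and Cpt1a by 1.03 ± 0.14, 2.59 ± 0.23 and 3.07 ± 0.23. For Cpt1a the APAP animals averaged 12.37, 12.01 and 11.38 at 3, 6 and 9 h, against 11.34, 9.42 and 8.31 in vehicle animals and 12.62 in baseline animals, so the APAP means lay between the vehicle means and the fasted one. Fgf21 in APAP animals, at 12.45, 11.78 and 11.19, lay above vehicle animals (8.5, 8.13 and 8.48) and above the fasted level (8.71). Other genes also had APAP means above it at some times. Pdk4 averaged 11.05, 9.59 and 8.99 in APAP animals at 3, 6 and 9 h, against 9.54 in baseline animals, and Igfbp1 averaged 14.22, 14.24 and 13.43, against 12.66 in baseline animals. The food eaten by each animal was not analysed here, and its part in these values was not tested.

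Of 16 measured p53 targets, 7, 9, 9 and 1 were called higher and 0, 1, 0 and 0 lower at 3, 6, 9 and 24 h, beside 3.34%, 7.06%, 8.65% and 1.56% of all genes higher. With ribosomal protein genes as the reference, 0 were called higher and 6 lower at 24 h. Over all genes that scale called 0.288% higher and 36.8% lower. Gadd45a rose by 3.63 ± 0.21, 4.16 ± 0.14 and 4.10 ± 0.20 at 3, 6 and 9 h and Btg2 by 3.95 ± 0.32, 4.07 ± 0.12 and 2.49 ± 0.25, both growth arrest genes that respond to several stresses besides p53. Of 18 other secreted liver factors, 3, 3, 3 and 1 were called higher and 3, 4, 5 and 2 lower, beside 1.84% to 8.47% of all genes lower. The count lower at 24 h was 6 when ribosomal protein genes were the reference, beside 36.8% of all genes. Igfbp1 rose by 6.62 ± 0.35, 5.46 ± 0.35 and 3.30 ± 0.33 at 3, 6 and 9 h, and Angptl4, which inhibits lipoprotein lipase, rose by 2.20 ± 0.17 and 1.19 ± 0.24 at 3 and 6 h and fell at 24 h (-1.78 ± 0.22).

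Markers of liver cell types form short lists, so their counts can be read only roughly against the shares of all genes called at 3, 6 and 9 h (3.34% to 8.65% higher, 2.98% to 8.47% lower). Among 10 hepatocyte markers only Tat, an amino acid enzyme induced by glucocorticoids, was called higher at 3, 6 and 9 h (2.06 ± 0.14, 2.11 ± 0.11 and 0.94 ± 0.19). Among 9 macrophage markers 1 was called higher at each of these times, Cd163 (0.65 ± 0.13, 0.59 ± 0.11 and 0.86 ± 0.15), and the list mean per animal ranged from 9.11 to 9.59 in APAP animals at 3 h against 9.07 to 9.33 in vehicle animals. Adgre1, the macrophage antigen F4/80, fell at 9 h (-0.95 ± 0.15) and 24 h (-0.64 ± 0.11). Among 6 neutrophil markers 0 were called at 3 and 6 h, and at 9 h S100a8 rose (0.90 ± 0.34) with values of 6.38, 4.45, 4.24, 4.82 and 5.69 in APAP animals, against 4.15, 4.48, 4.06, 4.23 and 4.17 in vehicle animals, 2 of the APAP animals lying within the vehicle range. The neutrophil list mean per animal was 5.41 to 6.59 in APAP animals at 9 h, against 5.45 to 5.67 in vehicle animals. Stellate (9 measured), endothelial (7 measured) and cholangiocyte (8 measured) lists gave between 0 and 1 call higher and between 0 and 3 lower at any time. The count of 3 was for stellate markers at 24 h, when 1.84% of all genes were called lower. Among the genes called lower was Lrat, the retinol-storing enzyme of stellate cells, at 6, 9 and 24 h (-1.55 ± 0.17, -2.56 ± 0.10 and -0.93 ± 0.16). When ribosomal protein genes were the reference, 6 stellate, 7 endothelial, 5 cholangiocyte, 6 macrophage, 3 neutrophil and 3 hepatocyte markers were called lower at 24 h, beside 36.8% of all genes. The part of these cells in the levels of Fgf21 and Gdf15 was not tested.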

How the data were processed

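Liver RNA of 45 rats was hybridized to Affymetrix rat expression arrays. The deposited values are log2 intensities that the authors made with RMA (affy 1.64.0 in R 3.6.1), in 1 probe set per gene, 13877 in all. RMA quantile-normalizes arrays, so each value is relative to its whole array. The 45 value columns of the annotation sheet were not used, because their codes could not be tied to the labels. Array batches are not given in the sources used here.

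Tests were run in R 4.3.3 with lmFit and eBayes of limma 3.58.1 on the arrays of the compared groups alone (10 for a pair, 20 for an interaction), and p-values were Benjamini-Hochberg adjusted over all genes. The thresholds follow the authors, who ran limma 3.42.2. The code was tested on simulated data. Fgf21, Gdf15 and all gene lists were chosen with earlier results of these data known. From each list up to 4 called genes with large APAP changes were named, or those of lowest p where none was called, beside Fgfr1 to Fgfr4, Ret, Atf4, Atf3, Ddit3 and Ppara, and the 5 genes most like each hormone. The animals and companion genes singled out in the text were chosen after their values were seen. Alternatives covered the scaling, filters and floors on dim genes, the variance model, thresholds, a joint fit, a replicate block and leaving out each animal. The ribosomal protein reference was the mean of only 6 genes.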

Additional observations from a re-analysis of the deposited data

Results flagged for a closer look

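In 6 of 26 sets of 5 values 1 animal lay far from the other 4 by Dixon's ratio of gap to range, where chance gives about 1 in 20. The sets were the 9 groups for each gene, and the APAP and vehicle groups for Fgf21 minus Gdf15. They share animals and values, so they are not independent and their count cannot be tested against that rate. For Fgf21 the animal set apart was the lowest APAP animal at 3 h, replicate 1 (11.46). For Gdf15 they were the lowest APAP animal at 9 h, replicate 3 (5.49), the highest vehicle animal at 9 h, replicate 2 (5.24), and the highest APAP animal at 24 h, replicate 3 (5.49). For Fgf21 minus Gdf15 they were the lowest vehicle animal at 6 h, replicate 2 (3.07), and the lowest APAP animal at 9 h, replicate 2 (2.45).

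The APAP effect differed between neighboring times by the interaction test for Gdf15 at 6 h against 3 h (-2.02), for Fgf21 at 24 h against 9 h (-3.08) and for Gdf15 at 24 h against 9 h (-2.08).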

How the results depend on the processing

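Fgf21 kept its calls in APAP against vehicle at 3, 6 and 9 h under all alternatives run, and Gdf15 under all that tested it. Leaving out the 25% dimmest genes removed Gdf15 itself, so that filter gave no result for it. Ranges on leaving out 1 animal were 3.767 to 4.196, 3.454 to 3.806 and 2.449 to 3.176 for Fgf21 and 4.309 to 4.94, 2.175 to 2.872 and 2.112 to 2.664 for Gdf15. Over all tests of the 2 genes, 1005 values kept their direction and call, 9 lost the call, 9 gained it and 32 changed sign. With values floored at the 25th percentile Gdf15 was -0.005 for APAP against vehicle at 24 h, -0.014 for vehicle at 6 h against baseline, and -0.001 (6 h less 3 h) and 0.007 (24 h less 9 h) within vehicle animals, and Fgf21 minus Gdf15 was 0.774 at 3 h (exact adjusted p = 0.0635) and 2.37 at 6 h (exact adjusted p = 0.0317). Centering on ribosomal protein genes moved the median of all genes to -0.14 at 9 h and -0.545 at 24 h, called 36.8% of genes lower and 0.288% higher there (1.84% and 1.56% under RMA) and 66.0% lower for APAP at 24 h against baseline (8.43% in both directions under RMA), gave Fgf21 -0.929 (APAP against vehicle at 24 h), -0.818 (vehicle at 6 h against baseline) and -1.114 (APAP at 24 h against baseline), all called, and gave Gdf15 -0.386 (APAP against vehicle at 24 h), -0.393 (APAP at 24 h against baseline), -0.216, -0.112 and -0.008 (vehicle at 6, 9 and 24 h against baseline), and -0.052 (6 h less 3 h) and 0.104 (24 h less 9 h) within vehicle animals. The step of Gdf15 between 6 and 3 h in APAP animals (-1.962) was not called with robust eBayes (limma adjusted p = 0.0621), and with an adjusted p under 0.01 required neither it nor the interaction (-2.024) was called. Array weights gave Fgf21 -0.842 for that step (called, limma adjusted p = 0.0445), and Gdf15 0.159 in APAP animals and 0.017 for the effect at 9 h less 6 h. The cause of these changes was not tested.

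Leaving out 1 animal gave ranges with a changed call or sign for APAP animals at 6 h less 3 h (Fgf21 -0.914 to -0.52, Gdf15 -2.41 to -1.56), Gdf15 in APAP animals at 9 h less 6 h (-0.441 to 0.374), Fgf21 in vehicle animals at 6, 9 and 24 h against baseline (-0.779 to -0.386, -0.697 to 0.029 and -0.327 to 0.22), Gdf15 in vehicle animals at 6 h against baseline (-0.024 to 0.06), Fgf21 in vehicle animals at 9 h less 6 h and at 24 h less 9 h (-0.112 to 0.615 and -0.111 to 0.615), the effect on Gdf15 at 9 h less 6 h (-0.62 to 0.194) and Fgf21 minus Gdf15 at 6 h (0.838 to 1.631). The interaction for Gdf15 at 6 h less 3 h stayed called (-2.471 to -1.621). Of the list counts 347 stayed within 1.5 times and 61 did not, most of these with a 2-fold threshold or with ribosomal centering at 24 h. Replicate numbers do not pair the animals: 14 of 60 same-numbered pairs of groups correlated above 0.1 (range -0.234 to 0.312). The replicate block changed no call and gave 2.708 for Fgf21 at 9 h (limma adjusted p = 0.0161). Centering on Gapdh was not run. Signal over background was not analysed here, which limits the low values of Gdf15.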
